A study of Mus musculus with 8 samples.

Results

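The genes Mef2a, Mef2b, Mef2c and Mef2d, encode the myocyte enhancer factor 2 (MEF2) proteins of the mouse, and this account covers the myogenin and p300 binding called in and around them. A called interval belonged to a Mef2 gene when it lay in the gene body or within 50 kb of either end of it. Of 43759 intervals in 4 peak lists, 26 did, and intervals that overlapped merged into 19 regions. The lists held 5912 myogenin intervals without bexarotene (Myog_Ctl), 6642 myogenin intervals with it (Myog_Bex), 22051 p300 intervals without it (p300_Ctl) and 9154 p300 intervals with it (p300_Bex).

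The cells were C2C12, an established mouse myoblast line whose strain is given as C3H, and they were differentiated for 24 h in medium with low horse serum. The Ctl cells received no bexarotene and the Bex cells received 50 nM of this agonist of the retinoid X receptor (RXR). Chromatin was immunoprecipitated with an antibody to myogenin or to p300, with 1 library per factor and condition, so 4 of the 8 samples of the series entered this account. Each list gives the positions of called peaks in mm9, whose starts were taken as counted from 0, and neither tag counts nor scores, so a missing interval shows only that no peak passed the authors' threshold there, and the depth of the libraries is not known from the lists. Since each condition had a single library, conditions could not be tested against each other and p-values are absent, and the 95% Wilson intervals below cover counting error only. As a look at the cell type, 7 of 8 muscle loci (Myod1, Myog, Acta1, Chrna1, Chrng, Des and Myh3) had a myogenin interval within 50 kb, as did 41.4% of all protein-coding genes, and Ckm had none.

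MEF2 proteins are MADS-box transcription factors that bind an AT-rich element as dimers and act together with the MyoD family on muscle genes. They carry little myogenic activity alone, are held back by class IIa histone deacetylases, and are activated through p38, ERK5, calcineurin and calmodulin kinase signalling. Myogenin is a basic helix-loop-helix member of the MyoD family that binds E-boxes and rises early in differentiation, and p300 is a histone acetyltransferase recruited by both MEF2 and the MyoD family. Mef2a and Mef2d are expressed in many tissues, Mef2c is induced in differentiating muscle, and Mef2b is the most divergent of the family.

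The sequences that carry the binding are shown first, on the plus strand of mm9 with E-boxes in capitals. The form CAGCTG reads the same on either strand, and a further form was counted as CACCTG on the plus strand and as its reverse complement CAGGTG. The opening pair comes from the region 12.6 kb upstream of Mef2a, called in all 4 lists. The former, chr7:74530019-74530318, is the center of the bases common to the 4 intervals, and the latter, chr7:74530423-74530687, holds the run of 5 E-boxes that lay outside the p300_Ctl interval.
Mef2a upstream, common center: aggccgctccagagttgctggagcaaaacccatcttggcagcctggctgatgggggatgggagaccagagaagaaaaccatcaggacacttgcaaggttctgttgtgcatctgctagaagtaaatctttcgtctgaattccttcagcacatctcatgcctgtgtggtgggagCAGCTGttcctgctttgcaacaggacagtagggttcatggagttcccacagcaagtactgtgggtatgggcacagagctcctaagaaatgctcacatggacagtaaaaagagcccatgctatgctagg
Mef2a upstream, E-box run: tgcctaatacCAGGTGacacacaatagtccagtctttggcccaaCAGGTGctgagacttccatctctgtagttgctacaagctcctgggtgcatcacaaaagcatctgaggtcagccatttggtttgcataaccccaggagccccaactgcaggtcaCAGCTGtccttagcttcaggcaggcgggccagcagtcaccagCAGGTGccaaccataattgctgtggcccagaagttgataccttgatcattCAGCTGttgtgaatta

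The next pair shows the start of Mef2a. The bases chr7:74518351-74518546, common to both myogenin intervals there, hold 2 E-boxes in capitals that are 14 bp apart. In chr7:74517727-74517756 the capitals mark instead the match to the MEF2 consensus that lies across the annotated start, the sole such match in any of the 26 intervals.
Mef2a start, myogenin: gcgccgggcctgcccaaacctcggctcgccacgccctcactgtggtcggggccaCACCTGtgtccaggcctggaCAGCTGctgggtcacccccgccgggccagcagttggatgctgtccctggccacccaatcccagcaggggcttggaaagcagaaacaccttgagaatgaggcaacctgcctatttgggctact
Mef2a start, MEF2 match: cacaccggggCTATTTTTAGgagtcaggcc

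For Mef2d, chr3:87942624-87942923 is the center of its single region with both factors. It is followed by 2 stretches of intron 1 that were chosen after their values were seen. One is chr3:87951452-87951751 with 5 E-boxes, called in both conditions, and the other is chr3:87949284-87949583 with 2 E-boxes, called with bexarotene only.
Mef2d upstream, both factors: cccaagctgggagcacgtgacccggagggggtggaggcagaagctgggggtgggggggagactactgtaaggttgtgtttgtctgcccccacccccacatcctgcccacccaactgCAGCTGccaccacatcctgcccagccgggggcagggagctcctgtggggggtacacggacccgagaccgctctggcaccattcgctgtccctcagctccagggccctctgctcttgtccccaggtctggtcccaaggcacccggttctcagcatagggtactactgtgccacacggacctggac
Mef2d intron 1, 5 E-boxes: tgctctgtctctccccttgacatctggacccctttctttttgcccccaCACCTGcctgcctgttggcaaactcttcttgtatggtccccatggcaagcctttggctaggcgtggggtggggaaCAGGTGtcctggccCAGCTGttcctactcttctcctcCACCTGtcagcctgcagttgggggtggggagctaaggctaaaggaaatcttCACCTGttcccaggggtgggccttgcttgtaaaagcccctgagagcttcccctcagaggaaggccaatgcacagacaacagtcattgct
Mef2d intron 1, Bex only: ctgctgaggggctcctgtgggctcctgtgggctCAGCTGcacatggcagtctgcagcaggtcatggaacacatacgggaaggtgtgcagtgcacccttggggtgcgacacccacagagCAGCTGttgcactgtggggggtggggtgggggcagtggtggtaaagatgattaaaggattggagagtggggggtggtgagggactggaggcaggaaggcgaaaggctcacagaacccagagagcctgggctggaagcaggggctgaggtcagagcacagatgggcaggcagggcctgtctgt

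Mef2b and Mef2c each had 1 interval, shown whole, at chr8:72736837-72737008 and chr13:83743664-83743821. The former has no E-box of these 3 forms.
Mef2b downstream: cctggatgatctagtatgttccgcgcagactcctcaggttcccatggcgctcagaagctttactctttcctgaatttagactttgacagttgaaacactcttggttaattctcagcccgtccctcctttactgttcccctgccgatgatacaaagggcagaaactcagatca
Mef2c intron 4: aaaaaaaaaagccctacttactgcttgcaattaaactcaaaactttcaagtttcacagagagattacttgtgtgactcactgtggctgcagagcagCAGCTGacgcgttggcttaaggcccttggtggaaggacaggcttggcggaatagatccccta

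Binding was unevenly spread over the family. Mef2d had 13 of the 26 intervals (5 Myog_Ctl, 5 Myog_Bex, 3 p300_Ctl and 0 p300_Bex) and Mef2a had 11 (2, 2, 5 and 2 in the same order). Mef2b had 1 Myog_Ctl interval and Mef2c 1 p300_Bex interval. Per 100 kb of gene body and flanks, Mef2d had 7.71 myogenin intervals, Mef2a 1.65, Mef2b 0.872 and Mef2c 0, against 0.913 over the windows of all 22225 protein-coding genes. The p300 order was different, with 2.9 intervals per 100 kb at Mef2a, 2.31 at Mef2d, 0.379 at Mef2c and 0 at Mef2b, against 1.53 over all gene windows.

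**Figure D1:**
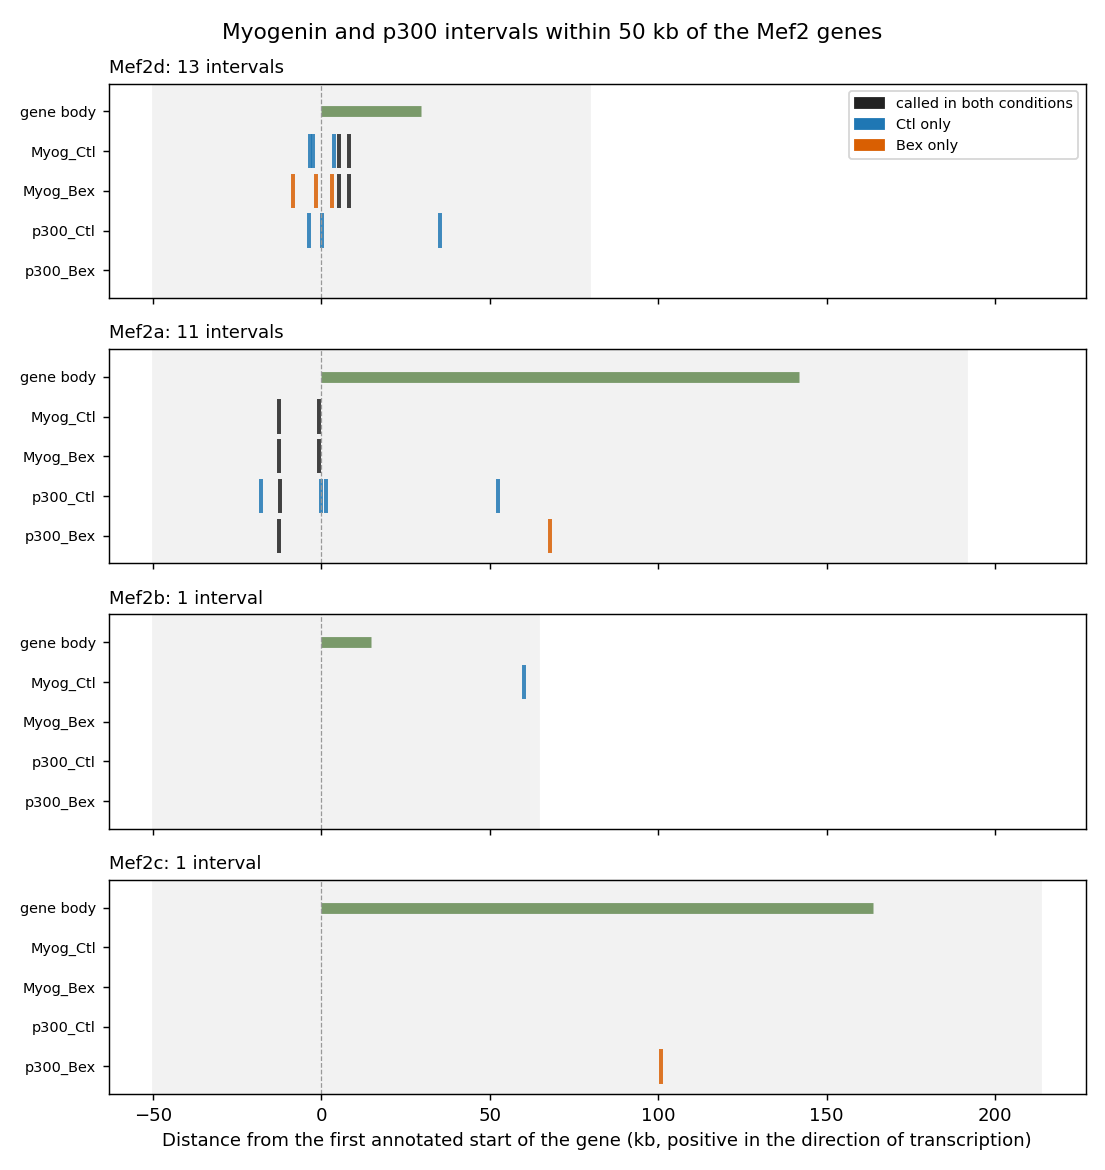
Position of each called interval around the 4 Mef2 genes, as the distance in kb from the first annotated start in the direction of transcription, with 1 row per list and the gene body as a green bar. Marks are drawn wider than the intervals so that they can be seen, the grey field is the window of 50 kb on either side of the gene, and the color gives whether the factor was called in both conditions or in 1. The 10 myogenin marks of Mef2d lie close to its start, whereas Mef2c has a single p300 mark far inside the gene.

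Among all genes, 41.4% had a myogenin interval of either condition within 50 kb and 56.8% had a p300 interval. For myogenin 3 of the 4 Mef2 genes did, and the same number did for p300. The 10 myogenin intervals of Mef2d were a count reached or passed by 1.75% of genes, and the 4 of Mef2a by 12.3%. The 7 p300 intervals of Mef2a were reached or passed by 9.36% of genes, and the 3 of Mef2d by 29.9%. At the mean density over gene windows, the 263.7 kb of Mef2c would hold 2.41 myogenin and 4.05 p300 intervals, where 0 and 1 were called. The 114.7 kb of Mef2b would hold 1.05 and 1.76, where 1 and 0 were called. Having no myogenin interval, as Mef2c did, was the case for 58.6% of all genes.

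**Figure D2:**
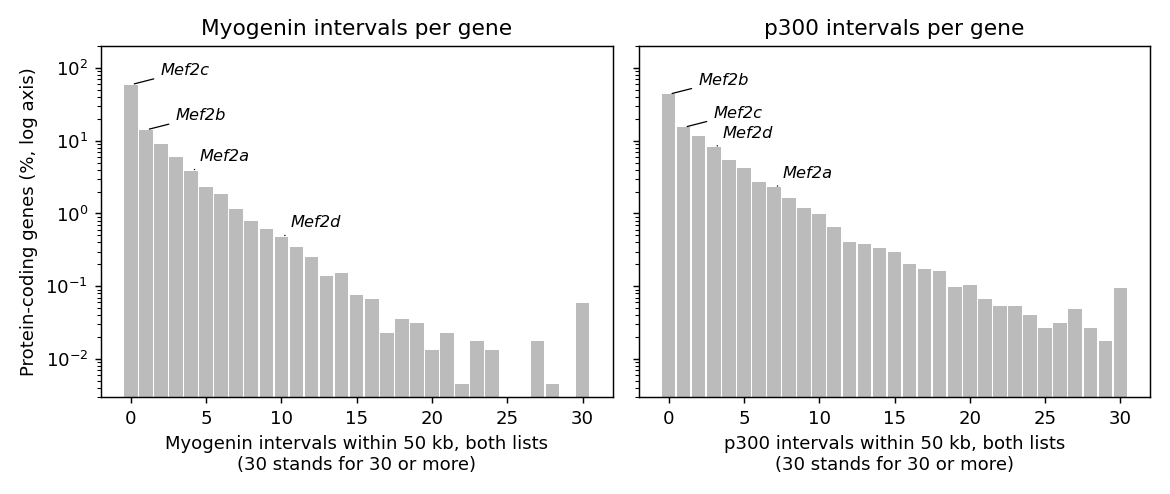
Share of all protein-coding genes (%, log axis) against the number of myogenin intervals (left) or p300 intervals (right) within 50 kb, both conditions summed and 30 standing for 30 or more. The names mark the Mef2 genes, and Mef2d with 10 myogenin intervals is the member farthest to the right in the myogenin panel, as Mef2a with 7 is in the p300 panel.

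Mef2d occupies chr3:87946294-87976008 on the plus strand (ENSMUSG00000001419.10). Its 10 myogenin intervals lay within 17.1 kb, from 87937663 to 87954733, and all 10 were within 10 kb of the gene body, a count that 0.405% of genes reached. They formed 8 regions, of which 2 were called in both conditions, 3 in control only and 3 with bexarotene only. Genes with at least 5 intervals in each myogenin list, as here, were 1.14% of all genes. Of the regions called in 1 condition, 2 of the Ctl only and 1 of the Bex only ones were at the smallest length of their list, and without such intervals Mef2d had 3 Myog_Ctl and 4 Myog_Bex intervals. The Ctl only and Bex only regions were interspersed, and both kinds occurred upstream of the start and in intron 1.

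Upstream of Mef2d no myogenin region was shared. A Bex only interval of 250 bp, chr3:87937663-87937912, was centered 8.51 kb before the start and held 3 E-boxes separated by 51 bp and 51 bp. A Ctl only myogenin interval of 172 bp, chr3:87942753-87942924, overlapped by 28 bp a Ctl only p300 interval of 159 bp, chr3:87942622-87942780. The CAGCTG of this region, at 87942740, lay in the p300 interval and outside the myogenin interval. A Ctl only interval of 216 bp and a Bex only interval of 168 bp followed at 2.59 kb and 1.71 kb before the start, and neither held an E-box of the 3 forms.

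In intron 1 of Mef2d the intervals were richer in E-boxes. The region with 5 E-boxes ran over 359 bp in control (chr3:87951421-87951779) and over 363 bp with bexarotene (chr3:87951424-87951786), 5.31 kb after the start. At least 5 E-boxes were found in 1.73% of all Myog_Ctl intervals and 1.81% of all Myog_Bex intervals. Those shares were not matched for length, and the median lengths of the lists were 172 and 189 bp. The second shared region, 8.27 kb after the start, ran over 349 bp in control (chr3:87954385-87954733) and 265 bp with bexarotene (chr3:87954385-87954649) and held 2 E-boxes 84 bp apart in either interval. Nearer to the start, a Bex only interval of 373 bp (chr3:87949247-87949619) and a Ctl only interval of 172 bp (chr3:87949856-87950027) were 236 bp apart. The former held 2 E-boxes, 1 AP-1 site (TGAGTCA or TGACTCA) and 3 copies of AGGTCA, the core bound by nuclear receptors, RXR among them. Of all Myog_Bex intervals, 0.105% held 3 or more copies of AGGTCA on either strand, again with no matching for length. A match of these letters is no evidence that a receptor was bound. The Ctl only neighbour held 1 CAGCTG and 1 copy of AGGTCA. Over the family, AGGTCA was present in 2 of 8 Myog_Ctl and 2 of 7 Myog_Bex intervals, against 14.1% and 15.2% of the lists. A direct repeat of AGGTCA spaced by 1 base was present in 0 of the 26 intervals, against 0.0151% of Myog_Bex intervals.

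The p300 intervals of Mef2d were all from control. Beside the interval that overlapped myogenin upstream, one of 159 bp lay in exon 1 (chr3:87946359-87946517), centered 144 bp after the most upstream start. The other, of 218 bp (chr3:87981540-87981757), lay downstream of Mef2d across the 5′ end of the long noncoding RNA 1700113A16Rik, which is transcribed towards Mef2d. The nearest p300_Bex interval was 158.9 kb from Mef2d, and of the protein-coding genes with a p300_Ctl interval 40.1% likewise had no p300_Bex interval within 50 kb.

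Mef2a occupies chr7:74376049-74517744 and is read from the minus strand (ENSMUSG00000030557.9), so higher coordinates are upstream. Both of its myogenin regions were upstream and both were called in both conditions. The nearer ran over 362 bp in control (chr7:74518185-74518546) and 213 bp with bexarotene (chr7:74518351-74518563), with centers 621 bp and 713 bp before the start. The bexarotene interval was 0.588 times as long as the control one, a ratio that 3.73% of the 2977 shared myogenin pairs fell below. Either interval held both E-boxes of the region.

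A p300_Ctl interval of 207 bp (chr7:74517650-74517856) covered the Mef2a start itself, at 74517744, and no p300_Bex interval was called there. It held the MEF2 consensus match at 74517737 to 74517746. The consensus was present within 100 bp of the center in 2.89% of all p300_Ctl intervals, and in 3.19% of 32851 RefSeq promoters (GRCm38.p6, 250 bases before to 50 bases after the start). A second p300_Ctl interval of 159 bp (chr7:74516347-74516505) lay 1318 bp into the gene in intron 1, held 1 CAGCTG and was likewise called in control only. The interval at the Mef2a start and the exon 1 interval of Mef2d were the 2 p300 intervals within 1 kb of a start of a Mef2 gene. Of all p300_Ctl intervals within 1 kb of a protein-coding start 75.9% had no overlapping interval with bexarotene, as was the case for both.

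The region 12.6 kb upstream of Mef2a, chr7:74529805-74530821, was the sole one within 50 kb of a Mef2 gene with all 4 lists, and 946 of the 30106 merged regions of the lists (3.14%) had all 4. It was also the longest myogenin interval of the family. The Myog_Ctl interval spanned the 1017 bp of the region and ranked 12 by length in its list, and the Myog_Bex interval (chr7:74529968-74530817) spanned 850 bp and ranked 14. The region held 7 E-boxes, of which the Myog_Ctl interval covered 7 and the Myog_Bex interval 6. At least 7 E-boxes were found in 0.406% of Myog_Ctl intervals and at least 6 in 0.678% of Myog_Bex intervals. Those shares were not matched for length, and a longer interval has room for more matches. The median lengths of the lists were 172 and 189 bp. Among the regions with all 4 lists this region ranked 29 by length, against a median of 461.5 bp.

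The p300 intervals of this region differed more than the myogenin ones. In control p300 was called over 419 bp (chr7:74529919-74530337) and with bexarotene over 734 bp (chr7:74530000-74530733), which ranked 3198 and 33 by length in their lists. The left ends were close, and with bexarotene the interval reached farther to the right, over the run of E-boxes. The p300_Ctl interval held 1 E-box and the p300_Bex interval 6. The ratio of the lengths was 1.75, and 99.5% of the 7097 shared p300 pairs had a smaller one. The median pair had a ratio of 0.663 and the bexarotene interval was the longer one in 9.88% of pairs. A gain of at least 5 E-boxes from control to bexarotene was seen in 1 pair of all (0.0141%), which is this one. Within the run lay 2 copies of AGGTCA, at 74530531 and 74530574, of which the latter ends where a CAGCTG begins. The region further held 1 AP-1 site and 2 copies of TGTGGT, the core bound by Runx factors. At least 2 copies of AGGTCA were found in 1.54% of all Myog_Ctl intervals, an AP-1 site in 11.7% and the Runx core in 27.5%. These shares too were not matched for length.

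**Figure D3:**
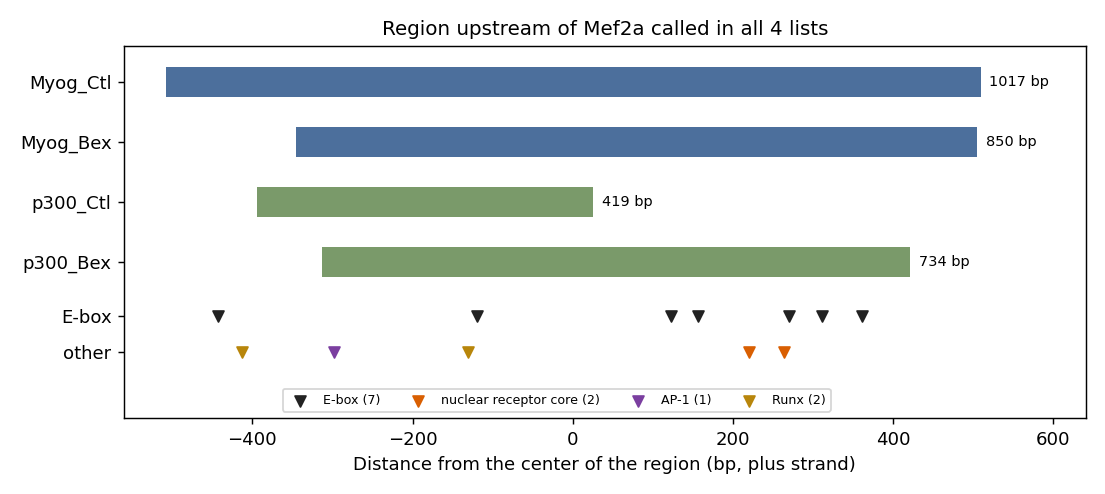
The 4 intervals called in the region 12.6 kb upstream of Mef2a, as bars with their lengths in bp, against the distance in bp from the center of the region on the plus strand. Triangles mark motif matches, and 5 of the 7 E-boxes lie to the right of the p300_Ctl bar, all of them under the p300_Bex bar.

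Across the shared regions of the family the lengths moved in both directions. Of the 4 shared myogenin pairs, the bexarotene interval was shorter in 3, with ratios of 0.588, 0.836 and 0.759, and was about as long in the Mef2d region with 5 E-boxes, with a ratio of 1.01. The median of all shared myogenin pairs was 0.977, which is the ratio of the smallest lengths of the lists, 168 and 172 bp. It thus reflects pairs at those smallest lengths and not a typical change of length. The lone shared p300 pair within 50 kb had a ratio of 1.75, where the myogenin pair at the same place had 0.836. At 87.1 kb upstream of Mef2a, outside the window, the order was the reverse, with 0.756 for p300 (209 and 158 bp) and 1.36 for myogenin (321 and 436 bp). There the 158 bp interval was at the smallest length of p300_Bex, and 0.756 was above the median p300 pair of 0.663. The p300 pair within 50 kb counts as shared under the overlap of 1 bp used here, and with a reciprocal overlap of 50% required, 0 p300 intervals of that window were shared. Lengths and calls both depend on the depth and background of a library, whose part in these differences was not tested.

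**Figure D4:**
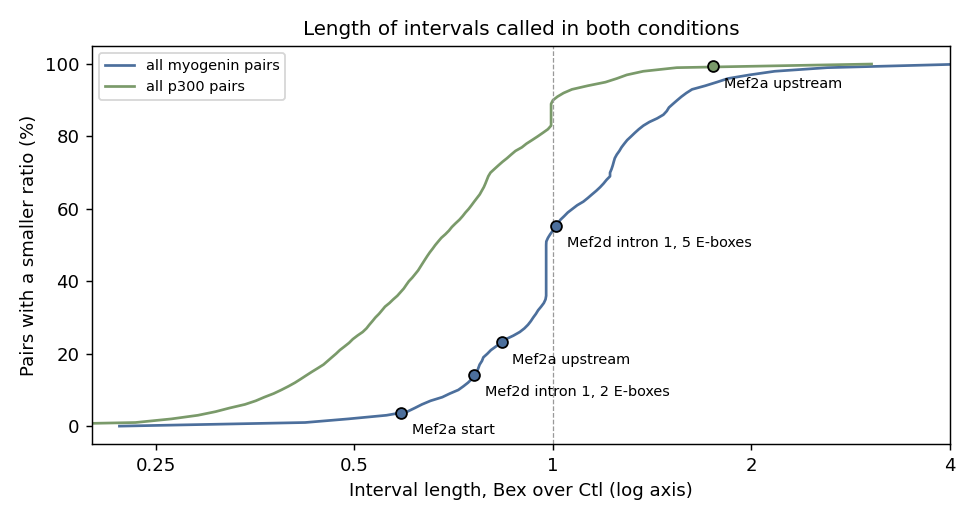
Length of the bexarotene interval over that of the control interval (log axis) against the share of pairs with a smaller ratio (%), for all pairs of overlapping myogenin intervals (blue line) and p300 intervals (green line). The circles are the 5 pairs near Mef2a and Mef2d, with the p300 pair upstream of Mef2a at 1.75 near the top of the p300 line.

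The remaining 3 p300 intervals of Mef2a were called in 1 condition each. In control 159 bp were called in intron 2 and 388 bp 18.0 kb upstream, and with bexarotene 158 bp were called in intron 3 (introns are numbered in the transcript Mef2a-002). The last 2 held 1 AP-1 site each. Beyond the 50 kb limit, Mef2a had 3 more myogenin regions at 72 kb, 87.1 kb and 93.6 kb upstream, again called in both conditions. Their lengths in control were 460, 321 and 500 bp, with bexarotene 411, 436 and 570 bp, and each interval held 4 to 6 E-boxes. The nearest protein-coding start to all 3 was that of Mef2a. Of these, the region at 87.1 kb overlapped p300 intervals in both conditions and that at 93.6 kb a p300_Ctl interval only.

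Mef2c occupies chr13:83643033-83806684 on the plus strand (ENSMUSG00000005583.8). Its interval, p300_Bex only and 158 bp long, lay in intron 4, 100.7 kb after the first start, and held 1 CAGCTG and 1 AP-1 site. Of the genes with a p300_Bex interval within 50 kb, 8.53% had, like Mef2c, no p300_Ctl interval there. The nearest myogenin intervals were a shared pair of the smallest lengths, 172 bp in control (chr13:83250617-83250788) and 168 bp with bexarotene (chr13:83250595-83250762), 392.2 kb and 392.3 kb upstream of the gene. Even at that distance the nearest protein-coding start was that of Mef2c. The 3 RefSeq promoters of Mef2c held none of the 3 E-box forms, which were found in 32.9% of all promoters, and no match to the MEF2 consensus. The promoters of Mef2a and Mef2d likewise held none of these E-box forms, and that of Mef2b held 1.

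Mef2b occupies chr8:72676677-72691387 on the plus strand (ENSMUSG00000079033.3), inside the span of the readthrough gene model 2310045N01Rik. Its interval, Myog_Ctl only and 172 bp long, was 45.4 kb beyond the end of the gene. That interval was 718 bp upstream of the start of Slc25a42, a mitochondrial carrier gene, and was the single one of the 26 with another protein-coding start nearer than that of the Mef2 gene. The nearest p300 intervals to Mef2b were 212.8 kb away in control and 115.4 kb away with bexarotene.

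Counted over the family, 4 of the 8 Myog_Ctl intervals (50%, 95% Wilson interval 21.5 to 78.5) and 4 of the 7 Myog_Bex intervals (57.1%, 25.05 to 84.2) were shared, against 50.6% and 45.1% of the whole lists. For p300, 1 of 8 Ctl intervals (12.5%, 2.24 to 47.1) and 1 of 3 Bex intervals (33.3%, 6.15 to 79.2) were shared, against 32.7% and 79.7%. These wide bounds treat the intervals as separate draws, although many lie at neighbouring sites of 1 gene, so they are no test against the lists. That of p300_Bex rests on 3 intervals. With a reciprocal overlap of 50% required, 0 p300 intervals were shared in either list. Myogenin overlapped p300 of the same condition in 2 of 8 Ctl and 1 of 7 Bex intervals, against 33% and 25.6% of the lists. Intervals at the smallest length of their list, which are the peaks called over the least sequence, were 3 of 8 Myog_Ctl, 1 of 7 Myog_Bex, 4 of 8 p300_Ctl and 2 of 3 p300_Bex intervals, against 54.8%, 50%, 34.3% and 48.9% of the lists. Within 1 kb of a start of a Mef2 gene lay 1 Myog_Ctl, 1 Myog_Bex and 2 p300_Ctl intervals, and 24.2%, 12.5% and 11% of those lists lay that near to a protein-coding start. The list shares take the start of any protein-coding gene. By that rule the Myog_Ctl interval of Mef2b, 718 bp from the start of Slc25a42, counts as well.

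An E-box within 50 bp of the center was present in 4 of 8 Myog_Ctl intervals (50%, 21.5 to 78.5) and 6 of 7 Myog_Bex intervals (85.7%, 48.7 to 97.4). The lists as a whole had 48.1% and 60.6%. Anywhere in the interval, an E-box was present in 5 of 8 and 6 of 7, against 65.2% and 77.2% of the lists. In all, the myogenin intervals of 7 of the 11 myogenin regions held 22 E-boxes, 11 CAGCTG and 11 CACCTG or CAGGTG. No myogenin interval held the MEF2 consensus, which was found near the center of 3.06% of Myog_Ctl and 3.34% of Myog_Bex intervals. Within 100 bp of the center, the AP-1 site was present in 1 of 8 p300_Ctl and 2 of 3 p300_Bex intervals, against 27.9% and 27.1% of the lists. Anywhere in the interval it was present in 2 of 8 and 3 of 3, against 31.6% and 28.3%. The Sp1 core GGGCGG was present anywhere in 3 of 8 p300_Ctl intervals, against 10.7% of the list, and in 0 of 3 p300_Bex intervals, against 10.9%. Those 3 were the intervals at the starts of Mef2a and Mef2d and at the 5′ end of 1700113A16Rik, and 35.7% of all RefSeq promoters held the core.

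The genes around MEF2 in its pathway were counted in the same way. Of 20 regulators and partners, 16 had a myogenin interval within 50 kb and 17 a p300 interval, against 41.4% and 56.8% of all genes. Those shares were not matched for window length, which reached 581.3 kb at Hdac9. The list was also chosen with earlier results of these data known. Among the class IIa deacetylases that repress MEF2, Hdac4 had 7 myogenin and 15 p300 intervals, Hdac5 2 and 8, Hdac7 4 and 11 and Hdac9 2 and 2. Ppp3ca, which encodes a catalytic subunit of calcineurin, had the most p300 intervals of the list by number, with 17 (11 Ctl and 6 Bex) in a window of 367.6 kb. Per 100 kb, Myod1 with 7.8 and Hdac7 with 7.25 had the most. Ep300, the gene of p300 itself, had 5 myogenin and 2 p300 intervals. Of the MyoD family, Myog had 8 myogenin intervals and Myod1 had 7, while the neighbours Myf5 and Myf6 had none of either factor. Per 100 kb of window, Myog had 7.8 myogenin intervals, close to the 7.71 of Mef2d, and Myod1 had 6.82. By number, within 10 kb Myog had 2, Myod1 1 and Mef2d 10. The body of Mef2d, at 29.7 kb, is longer than those of Myog and Myod1, so its 10 kb window is wider.

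Of 15 genes listed as MEF2 targets, 10 had a myogenin interval and 8 a p300 interval, against the same 41.4% and 56.8% of all genes, so the p300 count was near the share of all genes. Slc2a4, the insulin-responsive glucose transporter, had 6 Myog_Ctl and 5 Myog_Bex intervals, and Acta1, skeletal muscle actin, 4 and 5 with no p300 interval. At 10.4 and 8.74 per 100 kb, both had a higher myogenin density than Mef2d. By number, they had 1 and 5 myogenin intervals within 10 kb, against the 10 of Mef2d. These counts are not densities, since Mef2d is the longer gene and its 10 kb window is wider. Myom1, an M-band protein, had the most p300 intervals by number, with 10 Ctl and 6 Bex, and per 100 kb Jun was higher, with 8.72 against 7.72. Ckm, Srpk3 and Ppargc1a had no interval of any list, as was the case for 36% of all genes.

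**Figure D5:**
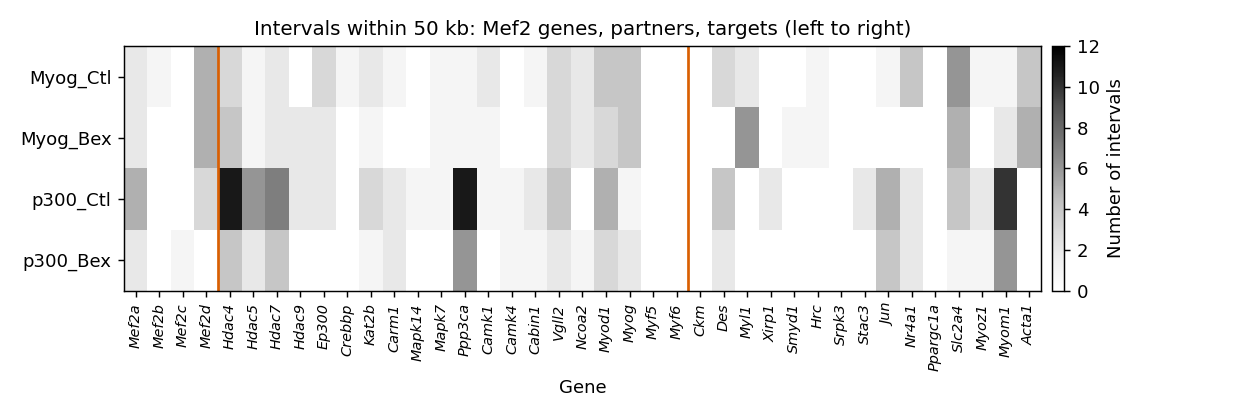
Number of intervals within 50 kb (grey scale from 0 to 12) in each of the 4 lists for the 4 Mef2 genes, the 20 regulators and partners and the 15 targets, separated by orange lines. Mef2d is darker in the myogenin rows than in the p300 rows, where p300_Bex is empty, and Hdac4, Ppp3ca and Myom1 are darkest in p300_Ctl.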

How the data were processed

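Of 8 samples, the 4 with a peak list were used, and the input and H3K27me3 libraries were left aside. Per the labels and methods, the authors mapped to mm9 with BWA (myogenin) or Bowtie (p300), removed duplicates with Picard and called peaks per library with HOMER. The deposited lists hold positions only (chromosome, start and end, with no signal, score or count), taken as stored from 0 and printed here from 1. If the starts count from 1, each printed start is 1 bp too high and each length 1 bp too low.

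Genes, starts and exons were those of the GENCODE annotation of the same build, in place of the RefSeq starts of the study. Records that shared a symbol on 1 chromosome were joined, which gave 22225 protein-coding genes. Intervals were called shared when they overlapped an interval of the same factor in the other condition by at least 1 bp. Positions relative to a start were taken from interval centers. E-boxes were counted within 50 bp of the center and other motifs within 100 bp, or over whole intervals where stated, with fixed letters in place of de novo motif discovery. Promoters came from RefSeq and were found in mm9 by sequence.

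The members and gene lists were chosen with earlier results of these data known. Intervals printed in full are those in regions with both factors, in regions called in both conditions or within 1 kb of a member start, and others were added after their values were seen. Alternatives changed the window, overlap rule, E-box form, MEF2 consensus, start distance and catalog, and left out intervals of the smallest length. Functions were tested on simulated data in 33 steps of 400 items, and all 33 were recovered. Python 3.11.15, numpy 2.4.6, pandas 2.3.3, scipy 1.17.1, pysam 0.24.0 and matplotlib 3.10.9 were used.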

Additional observations from a re-analysis of the deposited data

How the results depend on the processing

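Of 138 alternative values for 40 counts, 100 stayed within 1.5 times the value given above and 38 did not. No paired analysis was possible because each condition had 1 library and no test was made. With a window of 10 kb, Mef2a kept 1 Myog_Ctl, 1 Myog_Bex, 3 p300_Ctl and 1 p300_Bex intervals. Mef2b then had 0 Myog_Ctl intervals, and 0 p300 intervals were shared in either list. At 10 kb, 5 of the 15 target genes had a p300 interval, against 34.1% of all genes, so the count was near that share. With 100 kb, Mef2a had 5, 5 and 9 intervals in Myog_Ctl, Myog_Bex and p300_Ctl, Mef2b had 3 and 2 in the myogenin lists, 9 myogenin intervals were shared in either list, and 2 p300 intervals were shared in either list. Assigned by the nearest protein-coding start, Mef2a had 5, 5 and 9, Mef2b 0 Myog_Ctl intervals and Mef2c 1 interval in each myogenin list. Without intervals of the smallest length, Mef2a had 3 p300_Ctl and 1 p300_Bex intervals, Mef2b 0 Myog_Ctl, Mef2c 0 p300_Bex and Mef2d 3 Myog_Ctl and 1 p300_Ctl. In that setting 1 Myog_Ctl, 3 p300_Ctl and 0 p300_Bex intervals were called in 1 condition only. There 5 target genes had a p300 interval, a count given without the share of all genes. A reciprocal overlap of 50% left 0 shared p300 intervals in either list and 0 Myog_Ctl intervals over p300. Any CANNTG within 50 bp was present in 7 of 8 Myog_Ctl and 6 of 7 Myog_Bex intervals, against 67.3% and 79.1% of the lists, and 2 Myog_Bex intervals lay within 2 kb of a start. The 10 myogenin intervals of Mef2d were the same in number at 10 kb and 100 kb. The counts of Mef2b and Mef2c rest on single intervals of the smallest length. Without tag counts, depth and signal could not be weighed against any call.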
